A study of Bos taurus with 11 samples.

Results

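The transcripts of oxidative phosphorylation (OXPHOS) were followed in single bovine blastocysts in which the trophectoderm factors GATA3 or CDX2 had been disrupted. The genes were taken by their bovine symbols, those that start with NDUF, UQCR, ATP5 or COX followed by a digit, and SDHA to SDHD. In this way 99 of the 12056 transcripts in the deposited tables were chosen, 46 of complex I, 4 of complex II, 8 of complex III, 23 of complex IV and 18 of complex V, 1 transcript for each gene. The symbol rule uses no measured value, but the family was chosen with earlier results of these data known. The prefixes also take in 16 assembly factors and some isoforms of other tissues, and all the genes found are nuclear.

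In OXPHOS, electrons from NADH enter at complex I and those from succinate at complex II, pass over ubiquinone to complex III and over cytochrome c to complex IV, where oxygen is reduced. Complexes I, III and IV pump protons across the inner mitochondrial membrane, and complex V, the ATP synthase, uses the gradient to make ATP. Mammalian embryos rely on mitochondria inherited from the oocyte, and oxygen use is known to climb at the blastocyst stage, when the trophectoderm pumps sodium to fill the cavity.

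RNA was measured in 11 in vitro produced early blastocysts of day 7, each made into its own library with Smart-seq2 from polyadenylated RNA. The 3 WT control embryos had been injected as zygotes with mRNA of BE3, a cytosine base editor, alone. The 4 GATA3 KO embryos had received BE3 mRNA with a mix of GATA3 sgRNAs, and the 4 CDX2 KO embryos BE3 mRNA with a mix of CDX2 sgRNAs, so that every embryo, controls included, carried the editor. Each KO embryo was edited on its own after fertilization and is not a clone of the others, and its embryo number here is that of its column (3 to 6 for GATA3 KO, 2 to 5 for CDX2 KO). The deposited tables, which hold 1 KO each beside the same 3 WT embryos, were normalized separately, so embryos were compared within a table only. Values of single embryos are given in the order of their numbers, WT embryos 1 to 3 first. A whole blastocyst holds trophectoderm, inner cell mass and primitive endoderm, and in such bulk samples fewer cells of a type and less RNA per cell cannot be told apart.

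The embryos had 150057 to 540775 counts each in the GATA3 KO table and 100731 to 662962 in the CDX2 KO table, with the fewest in CDX2 KO embryo 3. A floor of 3 counts came to 4.53 to 29.8 CPM, and this covers counting error only. GATA3 itself fell by 2.62 on the log2 scale in GATA3 KO embryos, from 79.9 ± 8.17 (SD, n = 3) to 12.2 ± 1.58 normalized counts (SD, n = 4; limma, adjusted p = 7.64e-05). CDX2 was under the level tested, at 6.88 to 11.1 normalized counts in WT and 1.66 to 4.66 in CDX2 KO embryos. Summed trophectoderm markers overlapped between the groups in both tables (3651 to 8367 in WT against 4006 to 5760 normalized counts in GATA3 KO, and 5125 to 12917 against 2579 to 8710 in CDX2 KO). Their median difference was -0.37 over 9 tested in GATA3 KO and -0.65 over 10 in CDX2 KO. Among the trophectoderm markers of the GATA3 KO table, GATA2 fell by 1.16 (adjusted p = 0.0344, limma) and TFAP2C rose by 1.03 (adjusted p = 0.0442). Neither had overlap between the groups, where 7.05% of all transcripts tested lay below WT and 11.9% above it in all KO embryos. Markers of the primitive endoderm summed to 848 to 975 in WT and 562 to 1281 in GATA3 KO, and to 1267 to 1340 in WT and 883 to 1583 in CDX2 KO. Their median difference in GATA3 KO was -1.08 over 5 tested, and APOA1 among them fell by 1.55 (adjusted p = 0.0295), with every KO embryo below WT. Without GATA3 KO embryo 3 or 4, or without WT embryo 2, none of GATA2, TFAP2C and APOA1 passed (limma, adjusted p up to 0.152, 0.181 and 0.174 with 1 embryo left out). None kept its call when Y-linked counts, given below, entered as a covariate, and TFAP2C also lost its call with quantile normalization. Markers of the inner cell mass summed to 176 to 224 in WT and 98.4 to 223 in GATA3 KO, and to 239 to 303 in WT and 170.1 to 335 in CDX2 KO. Their median difference was -0.95 over 5 tested in GATA3 KO, 3 lower and 2 higher, with 0 passing, and 0.11 over 6 in CDX2 KO. Markers of cumulus and granulosa cells, which could cling to an embryo, summed to 33.5 to 95.5 in WT and 18.1 to 41.7 in GATA3 KO. In the other table they summed to 62.4 to 157 in WT and 78.9 to 134 in CDX2 KO. Their part in the values below was not tested.

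The blastocysts transcribed nearly the whole nuclear OXPHOS set. Structural subunits were listed for complex I with 38 genes, for complex II with 4, for complex III with 8, for complex IV with 8 and for complex V with 17, while COX5A and COX7C were not in the tables used here. A mean of at least 10 normalized counts, the level needed for testing, was reached by 84 of 95 listed members in the table of GATA3 KO and by 86 of 99 in that of CDX2 KO. Those below it had means of 1.34 to 8.74 normalized counts and were assembly factors and isoforms.

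Within the isoform pairs of complex IV, the partners known from muscle, lung or testis had few counts. COX4I1 had 370.5, 303 and 276 normalized counts in WT against 254, 109.5, 319 and 374 in CDX2 KO, while COX4I2, the lung isoform, had at most 7.35 in any embryo of that table. COX6A2 and COX7A1, the muscle isoforms, had at most 11.7 and 4.30, and the testis isoforms COX6B2 and COX7B2 at most 5.37 and 12.3. COX4I2, COX6A2, COX7A1 and NDUFA4L2 were listed in the table of CDX2 KO alone. COX8B and COX8C were not in the tables used here.

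OXPHOS genes took up 3.96%, 3.34% and 4.10% of all counts in WT embryos 1 to 3, and 3.63%, 3.95%, 4.37% and 4.13% in those of GATA3 KO, embryos 3 to 6. The groups overlapped, with 3.80% ± 0.41 (SD, n = 3) in WT and 4.02% ± 0.31 (SD, n = 4) in GATA3 KO. In the other table the same WT embryos held 3.97%, 3.29% and 4.08%, and CDX2 KO embryos 2 to 5 held 2.90%, 1.97%, 3.81% and 4.29%. CDX2 KO embryos 2 and 3 lay below all WT embryos and embryo 5 above them, and the groups overlapped, with 3.78% ± 0.43 (SD, n = 3) in WT and 3.24% ± 1.03 (SD, n = 4) in CDX2 KO. Complex V made up the largest part in every WT and GATA3 KO embryo, 1.44% ± 0.181 of all counts in WT and 1.56% ± 0.169 in GATA3 KO, ahead of complex I with 1.15% ± 0.0931 and 1.22% ± 0.105. In CDX2 KO embryo 2 this order was turned, with 0.881% for complex V and 1.03% for complex I.

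**Figure D1:**
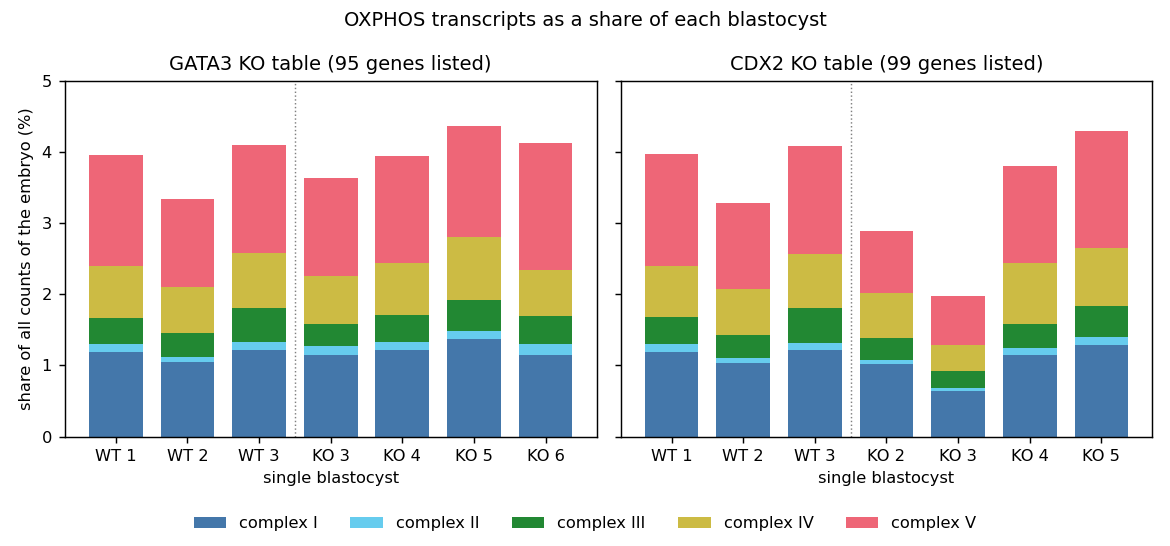
Share of all counts of each blastocyst (percent, bars from 0) taken by OXPHOS genes, stacked by complex I to V, in both tables. Bars of GATA3 KO embryos stand at 3.63% to 4.37% against 3.34% to 4.10% in WT, while CDX2 KO embryos 2 and 3 stand at 2.90% and 1.97%.

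The same embryos also differed among themselves before any KO was considered. Of the 84 tested genes, 60 had their lowest WT value in WT embryo 2 (71.4%, against 41.0% of all transcripts tested), and 44 had their highest in WT embryo 1 (52.4%, against 40.4%). Where the mean reached 100 these shares were 85.3% of members against 57.0% of all transcripts, and 50.0% against 54.4%. The median coefficient of variation of the members was 21.5% among the WT and 20.1% among the GATA3 KO embryos, and in the table of CDX2 KO it was 26.6% among WT and 51.2% among KO embryos. For all transcripts tested it was 28.5%, 26.8%, 34.0% and 47.2% in the same order.

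The first comparison asked whether OXPHOS genes differ between GATA3 KO and WT blastocysts. As given below, all WT embryos had counts of Y-linked genes and most KO embryos of either table had few or none. Only GATA3 KO embryo 6 (68 counts) and CDX2 KO embryo 5 (155 counts) had more than a few. Apart from these single embryos, this state cannot be told apart from the KO in any difference that follows. None of the 84 tested members passed the threshold (limma on log2(normalized count + 1), Benjamini-Hochberg adjusted p no higher than 0.05 together with a fold change from 1.5 up or from 0.6 down), where 86 of 4271 transcripts did (2.01%). At an unadjusted p under 0.05 there were 14 members, 16.7% of the members beside 22.6% of all transcripts. Of these, 11 had higher means in GATA3 KO (background 14.8%) and 3, NDUFA3, NDUFA7 and UQCRQ, lower means (background 7.84%). No member passed with edgeR or DESeq2 on the recovered counts either (2.95% and 3.7% of all transcripts did), and by each tool 16 members had an unadjusted p under 0.05 (21.1% and 17.5% of all transcripts). The median log2 difference of the members was 0.03, from -0.95 (NDUFA3) to 1.06 (SDHD), beside 0.11 over all transcripts tested.

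The split into higher and lower members depended on the scaling. With the deposited size factors 50 members were higher and 34 lower, with quantile normalization 35 and 49, and with rescaling by median ratios 38 and 46. The sign of 15 of the 84 members changed with quantile normalization and that of 12 with median ratios. These scalings moved the median of all transcripts by -0.11, to 0.00 and 0.01, and relative to all transcripts the members' median stood at -0.08, -0.11 and -0.08. Complex II kept a median above 0 and complex III below 0 under all 3 scalings, while complexes I, IV and V moved between 0.11 and -0.14. Per embryo the member medians against the WT mean were -0.09, 0.05, 0.25 and 0.11 in GATA3 KO embryos 3 to 6, within the -0.22 to 0.17 of the WT embryos except for embryo 5.

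Values of all 4 GATA3 KO embryos lay above all 3 WT embryos for 12 members, 14.3% of those tested beside 11.9% of all transcripts, and below them for 4 members, 4.76% beside 7.05%. The 12 were SDHD, UQCRC2, UQCRFS1, ATP5PB, COX7A2 and 7 subunits of complex I, and the 4 were NDUFA3, NDUFA7, NDUFA13 and ATP5MF. Both shares lie near the background.

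**Figure D2:**
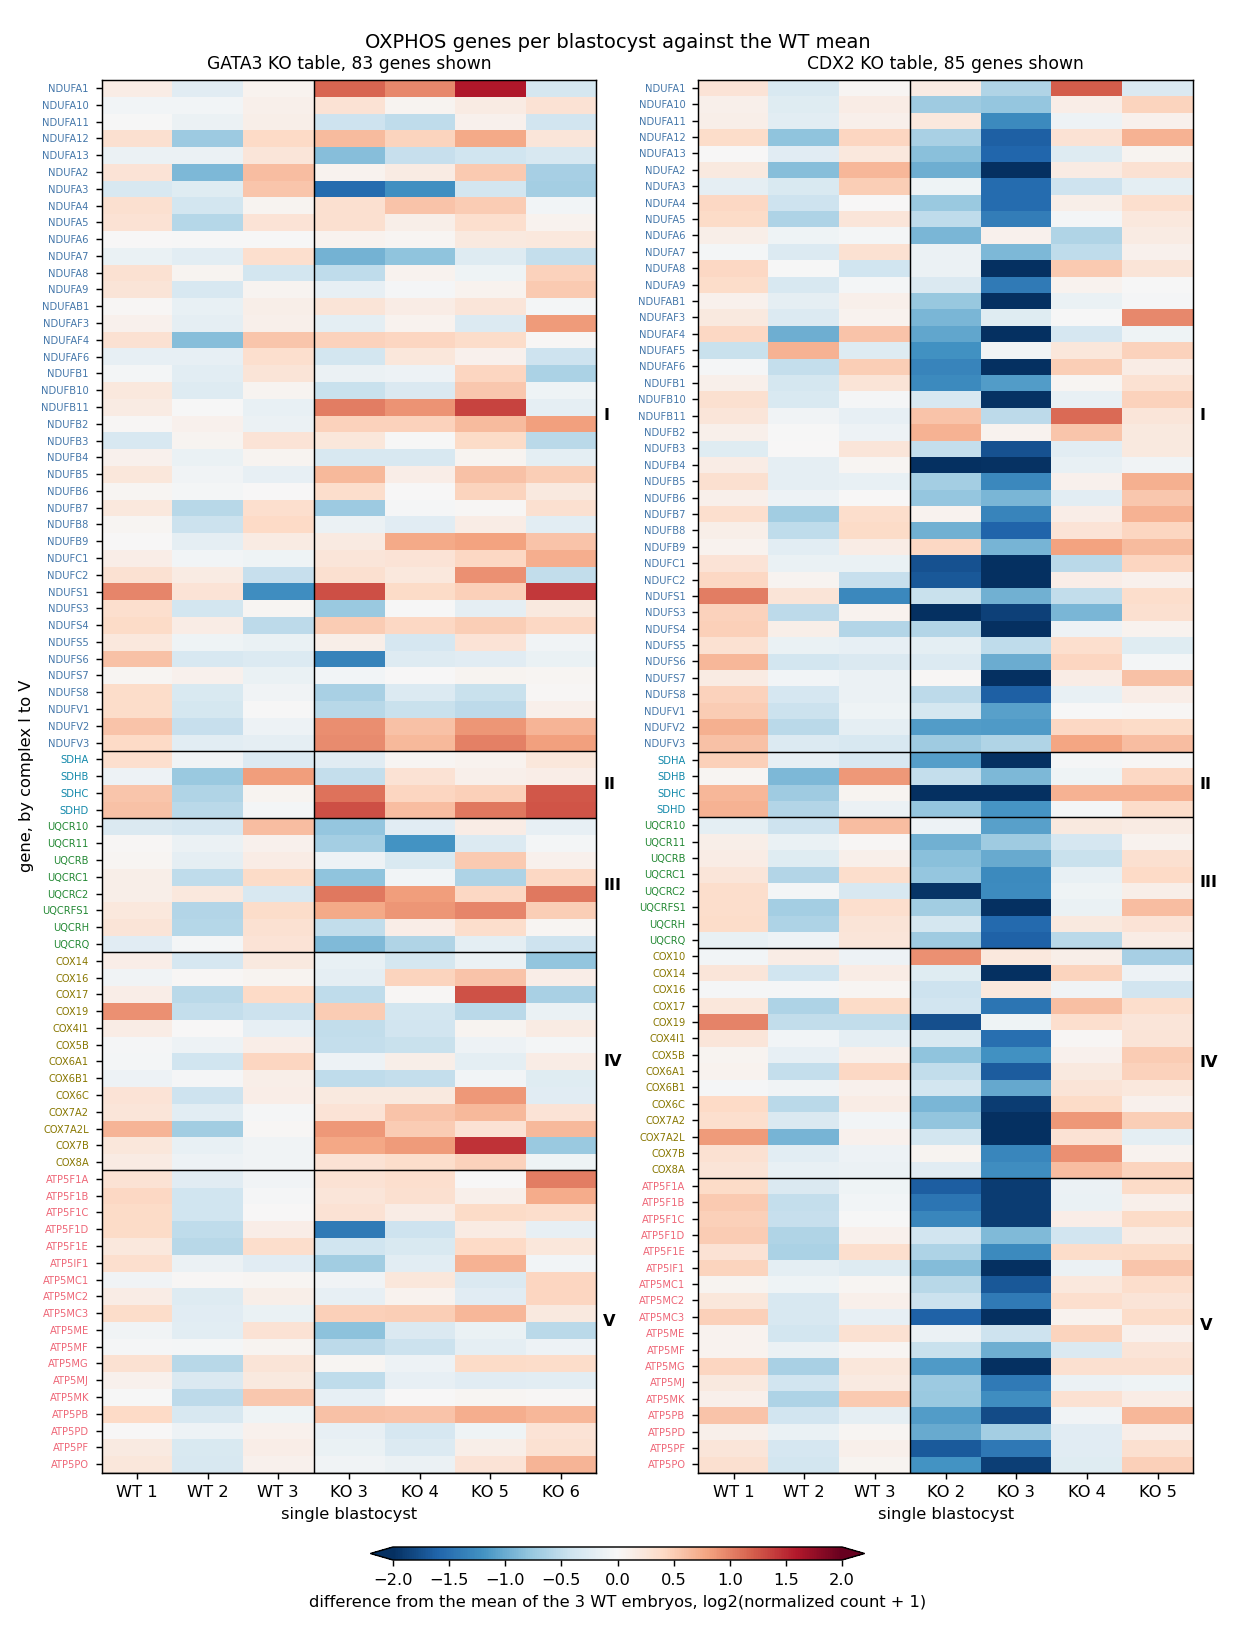
Tested OXPHOS genes (rows, by complex I to V, all but 1) in each blastocyst (columns) as the difference from the mean of the 3 WT embryos on the log2(normalized count + 1) scale, red above and blue below the WT mean, with colours ending at 2 log2 units. In the table of GATA3 KO few rows keep one colour over the 4 KO embryos, and in that of CDX2 KO embryos 2 and 3 are blue in most rows while embryos 4 and 5 are pale or red.

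Complex I, the entry point for NADH, had a median log2 difference of 0.11 over 41 tested genes, 25 higher and 16 lower. Its NADH-oxidising module had a median of 0.46 (9 genes, 6 higher and 3 lower, NDUFA7 the lowest at -0.62). The ubiquinone-reducing module had 0.07 (6 genes, 4 higher and 2 lower) and the proton-pumping membrane arm 0.02 (21 genes, 11 higher and 10 lower). NDUFV3, a supernumerary subunit of the NADH-oxidising module, had 28.4, 18.4 and 18.7 normalized counts in WT against 42.0, 34.0, 44.1 and 38.6 in GATA3 KO. All 4 KO embryos were above the WT embryos, and the difference of 0.86 did not pass (adjusted p = 0.0901, limma). NDUFV2, an iron-sulphur subunit of the same module, had 67.9, 32.4 and 42.0 normalized counts in WT against 86.8, 68.1, 84.6 and 73.1 in GATA3 KO. Again there was no overlap, with a difference of 0.77 (adjusted p = 0.120).

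In the same module the other core subunits overlapped between the groups. NDUFS1, the largest iron-sulphur subunit, had 32.4, 19.5 and 6.22 normalized counts in WT against 40.5, 21.1, 22.6 and 44.3 in GATA3 KO. Its WT values were the most scattered of all members, and its difference was 0.89 (adjusted p = 0.231). NDUFV1, which binds NADH, had 115, 70.2 and 88.6 normalized counts in WT against 60.8, 65.5, 61.9 and 96.1 in GATA3 KO. Embryo 6 stood apart from the other KO embryos, within the WT range (difference -0.36, adjusted p = 0.442).

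The lowest difference of all members was that of NDUFA3, a supernumerary subunit of the membrane arm, at -0.95 (95% confidence interval -1.63 to -0.28, adjusted p = 0.0970). Its values were 55.2, 58.4 and 103 normalized counts in WT against 23.2, 28.9, 53.6 and 42.7 in GATA3 KO. Every KO embryo lay under the WT embryos, embryo 5 by a small margin. NDUFA7, of the NADH-oxidising module, and NDUFA13, also supernumerary subunits, stood below WT in all 4 KO embryos. Their differences were -0.62 and -0.51 (adjusted p = 0.175 and 0.232, limma). NDUFB9, NDUFB2, NDUFC1, NDUFS4 and NDUFA6 stood above WT in all 4 KO embryos with differences of 0.13 to 0.59. NDUFAB1, the mitochondrial acyl carrier protein, had a difference of 0.15 with overlapping groups. NDUFA4, which is named after complex I and is known as a subunit of complex IV, had 295, 184 and 246 normalized counts in WT against 295, 353, 337 and 227 in GATA3 KO. Here KO embryos 4 and 5 exceeded all WT embryos (difference 0.33).

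Complex II, succinate dehydrogenase, also works in the citric acid cycle, and its 4 genes had a median difference of 0.42. Under both other scalings 2 of the 4 were higher and 2 lower, since the catalytic subunits were close to 0. SDHA, the flavoprotein, had 103, 77.8 and 66.8 normalized counts in WT against 69.5, 84.0, 85.8 and 95.2 in GATA3 KO (difference 0.03), and SDHB, the iron-sulphur protein, had a difference of 0.01. The membrane anchors differed more. SDHD had 64.7, 29.2 and 42.0 normalized counts in WT against 107, 66.3, 90.5 and 104 in GATA3 KO, and SDHC had 63.9, 28.1 and 45.1 normalized counts in WT against 92.6, 58.6, 60.7 and 103 in GATA3 KO. For SDHD the groups did not overlap, though KO embryo 4 was only just above WT embryo 1, and for SDHC embryos 4 and 5 lay below WT embryo 1. SDHD came closest to the threshold of all members, with a log2 difference of 1.06 (95% confidence interval 0.44 to 1.67, adjusted p = 0.0555), and SDHC had 0.81 (adjusted p = 0.142). Without WT embryo 1 both passed, at 1.35 (adjusted p = 0.0148) and 1.08 (adjusted p = 0.0488, limma), among 293 transcripts that passed in all (6.86%). SDHD also passed alone among the members with no filter on low transcripts (2.01% of all) and with a pseudocount of 5 (3.39% of all).

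Complex III, cytochrome bc1, had a median difference of -0.12 over 8 genes, 4 higher and 4 lower. UQCRFS1, the Rieske iron-sulphur protein that hands electrons to cytochrome c1, had 106, 60.5 and 118 normalized counts in WT against 155, 168, 181 and 128 in GATA3 KO. UQCRC2, a core protein, had 42.6, 45.4 and 31.1 normalized counts in WT against 82.5, 71.1, 52.4 and 82.9 in GATA3 KO. In both the KO embryos lay above WT throughout, with differences of 0.78 (adjusted p = 0.102) and 0.84 (adjusted p = 0.0833). UQCRC1, the partner of UQCRC2 in the core, differed by -0.27 with KO values from 76.7 to 179 over WT values from 94.0 to 176. The small subunits UQCR11 and UQCRQ had differences of -0.54 and -0.53 (adjusted p = 0.249 and 0.213). In UQCR11 KO embryos 3, 4 and 5 lay below every WT embryo, and in UQCRQ embryos 3, 4 and 6.

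Complex IV, cytochrome c oxidase, had a median difference of 0.03 over 13 tested genes, 7 higher and 6 lower. COX5B, a zinc-binding subunit, had 322, 303 and 356 normalized counts in WT against 233, 239, 305 and 318 in GATA3 KO. Embryos 3 and 4 lay below WT and embryos 5 and 6 within it (difference -0.27). COX4I1 differed by -0.17, COX6A1 by -0.01, COX6B1 by -0.32 and COX8A by 0.26, all with overlapping groups. COX7A2 was the member of complex IV without overlap, at 139, 101 and 115 normalized counts in WT against 142, 174, 183 and 141 in GATA3 KO (difference 0.44, adjusted p = 0.276). COX7A2L, known for joining complexes III and IV into supercomplexes, had 54.4, 20.5 and 34.2 normalized counts in WT against 62.2, 48.7, 41.7 and 53.4 in GATA3 KO (difference 0.58, adjusted p = 0.279). WT embryo 1 reached into the KO range there. The lowest difference of the complex was that of the assembly factor COX14, -0.35, and the 7 assembly factors tested in complexes I and IV together had a median of 0.03.

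Complex V, the ATP synthase, had a median difference of 0.02 over 18 genes, 10 higher and 8 lower. ATP5F1A and ATP5F1B, the alpha and beta subunits of the catalytic head, are described first. ATP5F1A had 451, 313 and 351 normalized counts in WT against 449, 465, 370.4 and 748 in GATA3 KO. ATP5F1B had 456, 258 and 334 normalized counts in WT against 404, 424, 364 and 571 in GATA3 KO. Both were highest in KO embryo 6 and otherwise overlapped WT, with differences of 0.41 and 0.35 (adjusted p = 0.345 and 0.414). ATP5F1D, the delta subunit of the head, had the lowest difference of the complex at -0.46, with KO embryo 3 at 42.0 normalized counts.

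ATP5PB, subunit b of the peripheral stalk, had 163, 99.4 and 117 normalized counts in WT against 185, 184, 205 and 197 in GATA3 KO. The KO embryos were close together and above WT (difference 0.63, adjusted p = 0.132), and without WT embryo 1 it passed at 0.83. The 3 genes for the same c-ring protein, ATP5MC1, ATP5MC2 and ATP5MC3, differed by 0.07, 0.03 and 0.46. ATP5ME, ATP5MF, ATP5MJ and ATP5MK of the membrane part had differences from -0.44 to -0.03, and ATP5MG, the remaining gene of that list, had 0.17. ATP5MF was below WT in every KO embryo. ATP5IF1, the inhibitor that keeps the enzyme from running backwards, differed by -0.07 with KO values from 78.1 to 206.

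**Figure D3:**
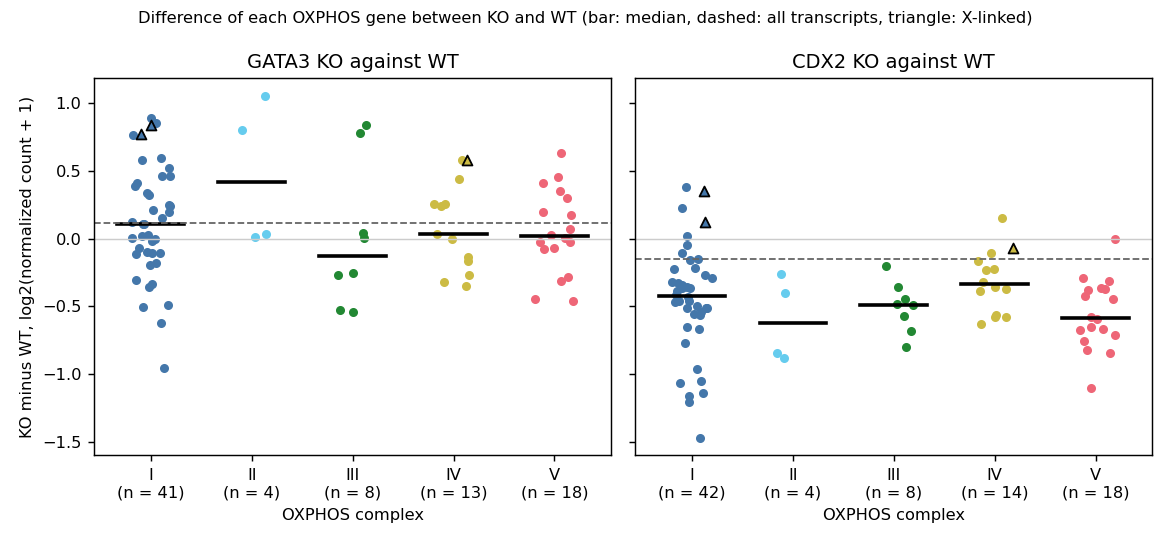
Difference between KO and WT of each tested OXPHOS gene on the log2(normalized count + 1) scale, by complex, for GATA3 KO (left) and CDX2 KO (right); bars are the medians of a complex, the dashed line the median of all transcripts tested (0.11 and -0.15), and triangles the X-linked genes. Points of GATA3 KO lie on both sides of the line, and those of CDX2 KO lie mostly under it.

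Other mitochondrial gene groups are given beside the OXPHOS genes. The 73 mitochondrial ribosomal proteins tested had a median difference of 0.27 in GATA3 KO, with 3 past the threshold, namely MRPL39 (1.68, adjusted p = 0.0211, limma), MRPL3 (1.47, adjusted p = 0.0468) and MRPL53 (adjusted p = 0.0483). The 77 cytosolic ribosomal proteins had -0.37, with 65 lower and none past it. Among assembly factors outside the symbol rule (18 tested, median 0.34) HIGD1A, a complex IV assembly factor, rose by 1.44 (adjusted p = 0.0442). Among 15 tested enzymes of the citric acid cycle and its entry (median 0.39) PDHB, of pyruvate dehydrogenase, rose by 1.09 (adjusted p = 0.0337) and SUCLA2, of succinyl-CoA synthetase, by 1.29 (adjusted p = 0.0427). In these 6 genes, which the threshold had picked, all 4 KO embryos lay above WT, as they did for 11.9% of all transcripts tested. Each of the 6 lost its call without GATA3 KO embryo 3, without GATA3 KO embryo 4, without WT embryo 2 and with the Y-linked covariate. Their highest adjusted p with 1 embryo left out (limma) ran from 0.111 (MRPL39) to 0.201 (MRPL53). MRPL3 and MRPL53 also lost their calls with DESeq2, edgeR, quantile normalization and median ratios. PDHB, SUCLA2 and HIGD1A lost theirs with quantile normalization. The glycolytic enzymes had a median of -0.14 over 11 tested. Carriers of adenine nucleotides and phosphate with the porins had a median of 0.56 over 7 genes, those for upkeep of mitochondrial DNA 0.11 over 5, the regulators of mitochondrial biogenesis -0.32 over 3, and cytochrome c with cytochrome c1 0.27 over 2. In these groups and in glycolysis 0 genes passed.

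The second comparison asked the same of CDX2 KO against WT. None of the 86 tested members passed, and neither did any of the 5719 transcripts tested (0%). At an unadjusted p under 0.05 there were 0 members and 187 transcripts (3.27%) with limma, and again 0 members by edgeR (4.56% of all transcripts) and DESeq2 (5.26%), whose thresholds 0.0175% and 0.175% of all transcripts passed. All 4 KO embryos lay on one side of WT for 0 of the tested members, beside 2.52% of all transcripts above and 3.36% below. The median log2 difference of the members was -0.44, with 80 lower and 6 higher, beside -0.15 over all transcripts. Quantile normalization gave -0.22 with 66 lower, and rescaling by median ratios -0.31 with 75 lower, where the median of all transcripts was -0.04 and -0.03.

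The members split the 4 KO embryos into pairs. Their medians against the WT mean were -0.70 and -1.41 in embryos 2 and 3, and 0.07 and 0.26 in embryos 4 and 5, where all transcripts had -0.15, -0.39, 0.05 and 0.10. Embryo 3 lay below every WT embryo for 77 of 86 members (89.5%), embryo 2 for 59 (68.6%), embryo 4 for 14 (16.3%) and embryo 5 for 3 (3.49%), where 47.7%, 37.2%, 24.2% and 18.6% of all transcripts tested did so. Both embryos 2 and 3 did so for 54 members (62.8%, beside 27.2% of all transcripts tested). Embryo 3 had the fewest counts of all libraries, 100731, and embryo 2 the fewest after it in this table, 218797. Without these embryos the median of the members was 0.17, with 61 higher and 25 lower, beside 0.05 over all transcripts. With them left out 0 members passed the threshold (0.0175% of all transcripts). They were left out after they were seen to be low in the members, so a rise of the median was fixed in advance.

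The differences of CDX2 KO varied with the level of a transcript. All transcripts with a mean of 10 to 30 normalized counts had a median difference of -0.01 in CDX2 KO, those of 30 to 100 had -0.30, those of 100 to 300 had -0.44 and those above 300 had -0.44. OXPHOS genes of the same classes had -0.32 (7 genes), -0.41 (33 genes), -0.45 (41 genes) and -0.82 (5 genes). In embryo 3 alone the OXPHOS genes of these classes stood at -0.08, -1.39, -1.42 and -1.89, beside 0.04, -0.82, -1.32 and -1.22 for all transcripts. In embryo 2 they stood at -1.04, -0.64, -0.61 and -1.46, so that the 7 genes of the lowest class lay under both middle classes, beside 0.07, -0.38, -0.65 and -0.74 for all transcripts. Where the mean reached 100, embryo 3 lay below every WT embryo for 100% of the 46 OXPHOS genes beside 92.2% of all transcripts, and embryo 2 for 73.9% beside 76.3%. There, both embryos lay under every WT embryo for 34 of 46 OXPHOS genes (73.9%) and 352 of 473 transcripts in all (74.4%).

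**Figure D4:**
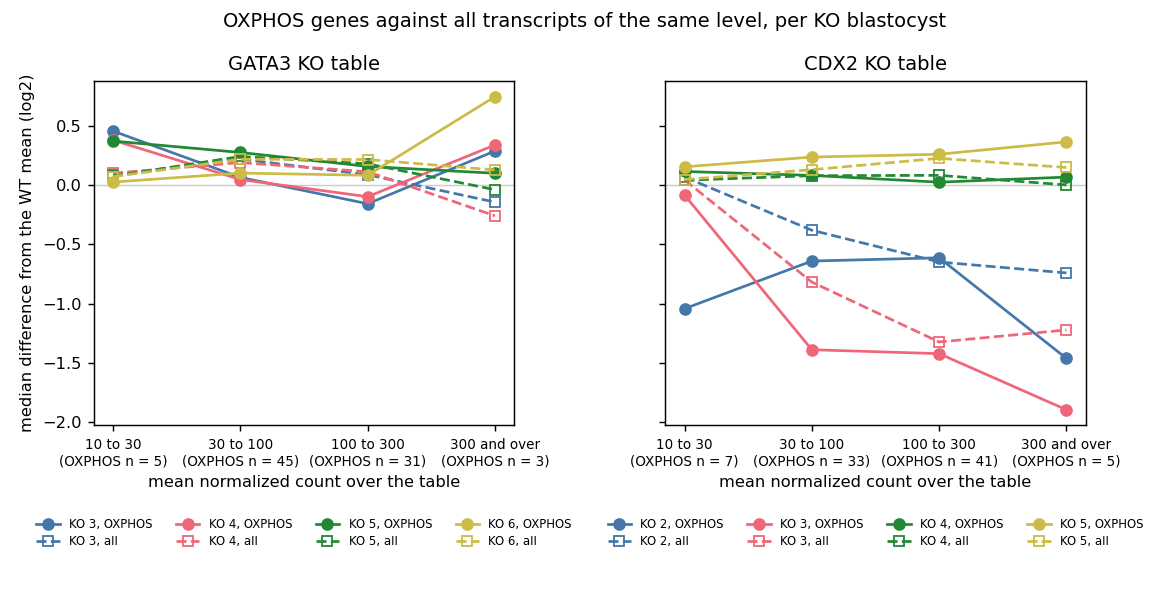
Median difference of each KO blastocyst from the WT mean (log2 scale, y axis) for OXPHOS genes (filled points, solid lines) and all transcripts tested (open squares, dashed lines), by class of mean normalized count (x axis). In the table of CDX2 KO both lines of embryo 3 lie lower from 30 counts up than below, going over the classes from -0.08 to -1.89 for OXPHOS genes and from 0.04 to -1.22 for all transcripts, the OXPHOS line of embryo 2 goes from -1.04 to -0.61 and then to -1.46, and embryos 4 and 5 stay near or above 0.

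By complex the medians in CDX2 KO were -0.42 for complex I (42 genes), -0.62 for II (4), -0.49 for III (8), -0.34 for IV (14) and -0.58 for V (18). Without embryos 2 and 3 they were 0.16, 0.17, 0.07, 0.26 and 0.22. These embryos were left out after they were seen to be low in the members, so the change of sign is no result about the complexes. In embryo 3 the complex medians ran from -1.27 (complex III) to -1.73 (complex II), and in embryo 2 from -0.38 (complex IV) to -0.94 (complexes II and V).

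In complex I, the lowest difference was that of NDUFC2, a small membrane-arm subunit, with 93.3, 72.7 and 50.4 normalized counts in WT against 20.8, 2.33, 77.1 and 74.1 in CDX2 KO. Embryos 2 and 3 were under every WT embryo and embryos 4 and 5 among them (difference -1.47, 95% confidence interval -3.35 to 0.41, adjusted p = 0.900). NDUFB2 had the highest difference, 0.38 (adjusted p = 0.900). In it, unlike in most members, embryo 3, at 46.6 normalized counts, was within the WT range of 41.3 to 47.6. NDUFA4 had 454, 255 and 342 normalized counts in WT against 203, 116, 369 and 430.1 in CDX2 KO, lowest in embryo 3. The core subunits NDUFS1 and NDUFV1 differed by -0.39 and -0.35, and NDUFAB1 by -0.96.

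In complex II, SDHC had 100.2, 37.9 and 65.3 normalized counts in WT against 12.3, 9.32, 102 and 103 in CDX2 KO. Embryos 2 and 3 lay far below and embryos 4 and 5 just above the highest WT embryo, so SDHC had the widest KO spread of all members, a coefficient of variation of 93.5%, and a difference of -0.88 (adjusted p = 0.900). SDHA had 163, 104 and 92.8 normalized counts in WT against 53.9, 23.3, 114 and 119 in CDX2 KO. It split the embryos into the same pairs (difference -0.84), and SDHB and SDHD differed by -0.26 and -0.40.

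In complex III, UQCRC2 had the lowest difference, -0.80, and UQCR10, a small subunit, the highest, -0.21. UQCRFS1 had 165, 80.6 and 164 normalized counts in WT against 79.7, 30.3, 118 and 199 in CDX2 KO. Embryo 2 was just under the lowest WT embryo, embryo 3 far under it, and embryo 5 above all (difference -0.57). UQCRC1 and UQCRQ differed by -0.45 and -0.68.

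In complex IV, COX5B had 488, 418 and 504 normalized counts in WT against 267, 203, 496 and 670.1 in CDX2 KO. Embryos 2 and 3 were below WT and embryo 5 above it (difference -0.35). COX7A2 had 216, 141 and 165 normalized counts in WT against 98.0, 23.3, 314 and 241 in CDX2 KO, with embryos 4 and 5 above all WT embryos. COX4I1, COX6A1, COX6B1 and COX8A differed by -0.39, -0.37, -0.23 and -0.10. The lowest difference of the complex was that of COX7A2L, -0.63, and the highest that of COX10, which makes the heme of the enzyme, 0.15.

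In complex V, ATP5MC3 had the lowest difference, -1.10 (95% confidence interval -2.64 to 0.44, adjusted p = 0.900), with 556, 321 and 356 normalized counts in WT against 129.9, 41.9, 418 and 514 in CDX2 KO. The other c-ring genes, ATP5MC1 and ATP5MC2, differed by -0.42 and -0.31. ATP5F1A had 685, 430.5 and 494 normalized counts in WT against 168, 139.8, 483 and 689.9 in CDX2 KO, and ATP5F1B had 702, 351 and 470.0 normalized counts in WT against 176, 130.5, 444 and 525 in CDX2 KO. Both were far below WT in embryos 2 and 3 and within or just above the WT range in the others, with differences of -0.82 and -0.85 (adjusted p = 0.900 for both). ATP5ME had 193, 142 and 227 normalized counts in WT against 169, 137, 251 and 195 in CDX2 KO. It had the highest value of the complex, -0.00339, since embryo 3 lay just under the lowest WT embryo and embryo 4 above the highest. ATP5IF1 differed by -0.65.

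The other groups had medians from -0.89 to 0.04 in CDX2 KO, beside -0.44 for the members, with 0 genes past the threshold. Mitochondrial ribosomal proteins had -0.44 (73 tested), cytosolic ribosomal proteins -0.42 (77), assembly factors outside the symbol rule -0.46 (21), enzymes of the citric acid cycle -0.32 (15), glycolytic enzymes -0.47 (13), carriers and porins -0.42 (7), genes for upkeep of mitochondrial DNA -0.33 (6), biogenesis regulators 0.04 (4) and cytochrome c with cytochrome c1 -0.89 (2).

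Read across both tables, which share the WT embryos, SDHD differed by 1.06 in GATA3 KO and -0.40 in CDX2 KO. In the same order UQCRFS1 differed by 0.78 and -0.57, UQCRC2 by 0.84 and -0.80, ATP5PB by 0.63 and -0.58, and NDUFA3 by -0.95 and -0.56. SDHD, UQCRC2, ATP5PB and NDUFA3 were extremes of their complex in GATA3 KO. All members had a median of -0.44 in CDX2 KO, with 80 of 86 lower, so lower values there are not particular to these genes. The median was 0.17 without embryos 2 and 3, a rise fixed in advance by how these embryos were picked. The same WT embryos had 1.85 to 1.89 times as many counts per transcript in the table of CDX2 KO as in the other, in the median, so counts were not compared between tables. NDUFAF2, an assembly factor of complex I under the level tested, had 2.37, 3.24 and 1.55 normalized counts in WT against 8.68, 3.88, 5.96 and 3.28 in GATA3 KO, and beside CDX2 KO it had 3.17, 3.95 and 1.15 normalized counts in WT against 11.0, 4.66, 5.81 and 9.66 in CDX2 KO. All KO embryos lay above all WT embryos in both. The recovered counts were only 1 to 3 in WT and 4 to 9 in GATA3 KO, and 1 to 5 in WT and 2 to 18 in CDX2 KO. It was the 1 such case among 11 members under the level tested in GATA3 KO and 13 in CDX2 KO. The share over all transcripts under that level was not counted. As the WT embryos are the same, the 2 comparisons are not independent.

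Embryos also differed in the X-linked members NDUFA1, NDUFB11 and COX7B, which the annotation of ARS-UCD2.0 puts on chromosome X. Y-linked transcripts (DDX3Y, EIF1AY, TSPY and USP9Y) had 50, 98 and 29 counts in WT embryos 1 to 3, against 0, 0, 2 and 68 in embryos 3 to 6 of GATA3 KO. TSPY among them was 4.11 lower on the log2 scale in GATA3 KO (adjusted p = 0.0232, limma). It had 0, 0, 1.19 and 18.9 normalized counts in KO embryos 3 to 6. The call was lost without GATA3 KO embryo 3 or 4 and without WT embryo 2 or 3. It was also lost with DESeq2, a pseudocount of 0.1 and the Y-linked covariate. NDUFA1, a small subunit of the membrane arm, had 57.6, 44.3 and 54.4 normalized counts in WT against 117, 102, 158 and 40.2 in GATA3 KO. NDUFB11, of the same arm, had 42.6, 37.8 and 34.2 normalized counts in WT against 78.1, 71.9, 98.9 and 33.7 in GATA3 KO. COX7B, a subunit of complex IV, had 84.4, 64.8 and 68.4 normalized counts in WT against 124, 131, 198 and 42.7 in GATA3 KO. In each of them KO embryos 3, 4 and 5, with at most 2 Y-linked counts, were above every WT embryo, and embryo 6, with 68, was below every WT embryo.

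Against the autosomal members of the same embryo, the 3 genes stood 1.13, 0.86 and 1.26 log2 units higher in GATA3 KO embryos 3 to 5 and at -0.49 in embryo 6, beside -0.16 to 0.08 in WT. Over all 4 KO embryos their differences were 0.84, 0.78 and 0.58 (adjusted p = 0.175, 0.167 and 0.365), and their median was 0.78, beside 0.58 over 135 other X-linked transcripts. Without embryo 6 all 3 rose past the threshold, by 1.24, 1.09 and 1.03 (adjusted p = 0.0222, 0.0347 and 0.0393, limma), among 183 transcripts in all (4.28%). When Y-linked counts, coded as above 3 counts or not, entered as a covariate, their median was -0.36, a value that rests on embryo 6 alone against WT.

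Among the CDX2 KO embryos, Y-linked counts were 0 in embryos 2, 3 and 4 and 155 in embryo 5, beside 80, 149 and 46 in WT. The X-linked members stood 0.87, 0.82 and 1.10 log2 units above the autosomal members in embryos 2 to 4 and at -0.19 in embryo 5. Their differences over all embryos were 0.12 for NDUFA1, 0.35 for NDUFB11 and -0.07 for COX7B, with a median of 0.12 beside 0.45 over 161 other X-linked transcripts. Leaving the X-linked genes out gave a median of the remaining members of 0.03 in GATA3 KO and -0.45 in CDX2 KO. WT embryos all had Y-linked counts, so among embryos without them no WT control was available. Only GATA3 KO embryo 6 and CDX2 KO embryo 5 shared the Y-linked state of WT. Apart from these single embryos, the KO and the Y-linked state cannot be told apart, in these genes or in any other transcript. With the Y-linked covariate the median of all members was 0.11 in GATA3 KO and 0.26 in CDX2 KO. These values rest on GATA3 KO embryo 6 alone and CDX2 KO embryo 5 alone against WT.

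**Figure D5:**
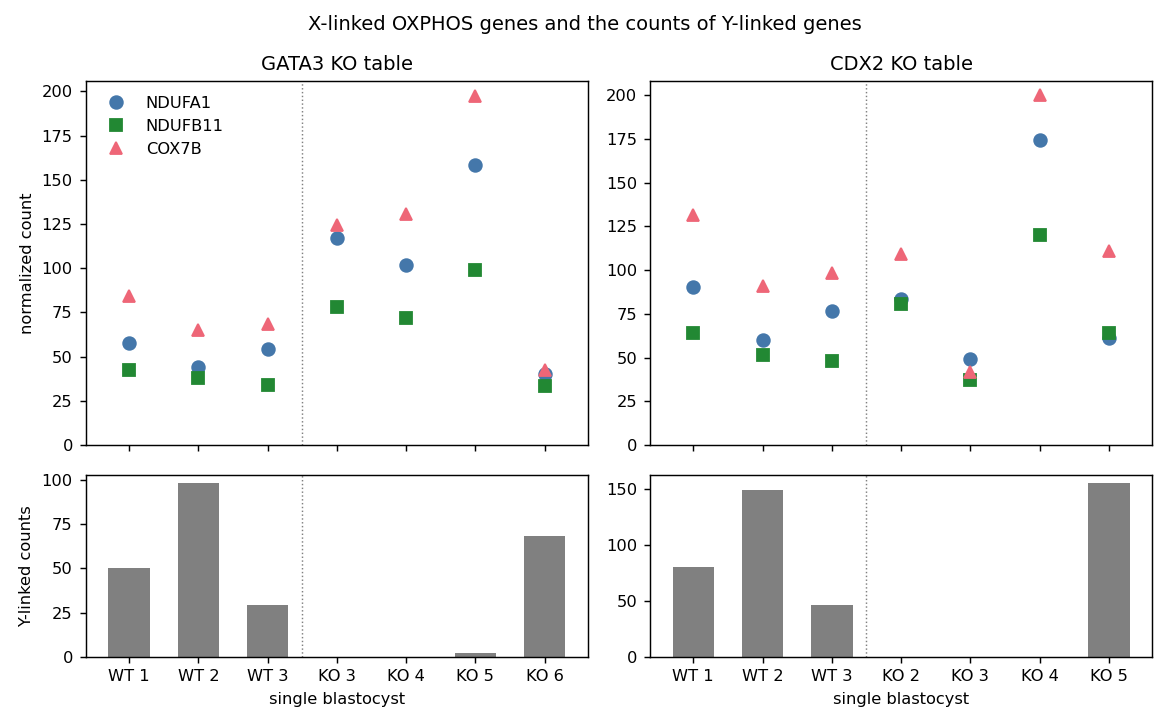
Normalized counts of the X-linked OXPHOS genes NDUFA1, NDUFB11 and COX7B (top) and the summed counts of Y-linked genes (bottom, bars from 0) in each blastocyst of both tables. GATA3 KO embryos 3 to 5, with 0 to 2 Y-linked counts, lie above WT for all 3 genes, and embryo 6, with 68, lies below it.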

How the data were processed

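RNA of 3 WT control, 4 GATA3 KO and 4 CDX2 KO bovine blastocysts was sequenced embryo by embryo on day 7. The authors used Trimmomatic for trimming, HISAT2 for mapping to ARS-UCD1.2, featureCounts for counting and DESeq2 for normalization. In the deposited signal columns each count had been divided by the size factor of its embryo, table by table. Counts were recovered from it, since 100% of values were whole multiples of a step (tolerance 0.1). Total counts ran from 100731 to 662962. The deposited tables also hold the authors' fold changes and p-values, which were not used. Samples were grouped by the labels, WT columns by number and KO columns by group alone, and 0 columns of sample values were left unused. Since nothing says that embryos came from separate matings or cultures, p-values measure the spread between these embryos.

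RefSeq accessions were paired with symbols through the gene table of ARS-UCD2.0, whose coordinates are not given. Transcripts with a mean of at least 10 were tested within a table by limma 3.58.1 (R 4.3.3; trended prior, log2(normalized count + 1), Benjamini-Hochberg adjustment over all of them), with a threshold on the adjusted p (0.05) and the fold change (1.5 up, 0.6 down). Log2 differences on this scale understate changes of low transcripts. Tables were made with Python 3.11.15, numpy 2.4.6 and pandas 2.3.3. The test had been written for either raw or normalized counts, and the unit was normalized counts. Other settings were pseudocounts of 0.1 and 5, all transcripts, a minimum mean of 100, scaling by quantiles or by median ratios, edgeR 4.0.16 and DESeq2 1.42.0 on recovered counts, other fold change thresholds, a Y-linked covariate, 1 row per symbol, transcripts listed in both tables, structural subunits alone, and leaving out each embryo. After the data were seen, leaving out CDX2 KO embryos 2 and 3, autosomal members alone and classes of expression level were added.

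Genes named were the highest and lowest difference per complex and table, the most abundant per complex, a list of core and regulatory subunits, isoform groups, X-linked members, and members of the other gene lists past the threshold; others, among them 3 mitochondrial ribosomal proteins, were named after their values were seen. The members and lists were chosen with earlier results of these data known. On simulated counts with 200 genes changed by 2 log2 units, limma recovered 87.5% for GATA3 KO over 4271 transcripts and 37.5% for CDX2 KO over 5719. The simulation gave all transcripts of a table the same dispersion (0.0653 and 0.192) and held no shift of a whole embryo. Members differed by at most 1.06 in GATA3 KO and by -1.47 at the lowest in CDX2 KO. Changes of that size were not simulated, so these shares do not tell how many would be found. Some genes of the lists and markers are not reported here.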

Additional observations from a re-analysis of the deposited data

Results flagged for a closer look

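NDUFV1, the NADH-binding subunit of complex I, had 96.1 normalized counts in GATA3 KO embryo 6 against 60.8 to 65.5 in the other 3 GATA3 KO embryos, a gap that is wide for a group of 4. Of 91 such groups examined over the named members, 1 was marked in this way, where chance gives about 1 in 20 (4.55).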

How the results depend on the processing

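In GATA3 KO, 1 member, SDHD, passed with no filter (log2 difference 1.06) and 1, again SDHD, with a pseudocount of 5 (0.99). Leaving out each embryo gave 0 to 5 members, 3 without GATA3 KO embryo 6 (NDUFA1, NDUFB11, COX7B) and 5 without WT embryo 1 (SDHD, SDHC, NDUFV2, NDUFV3, ATP5PB), in fits where the call count over all transcripts went from 1 (without GATA3 KO embryo 3 or WT embryo 2) to 293. All other settings gave 0 members, among 1 (Y-linked covariate) to 158 (DESeq2) transcripts beside 86, with 172 for no filter, 145 for a pseudocount of 5 and 37 for a mean of at least 100. The median of the X-linked members moved to -0.36 with the Y-linked covariate.

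In CDX2 KO every setting gave 0 members, beside at most 10 transcripts in all (DESeq2). The median of the members ran from -0.11 to 0.11 in GATA3 KO and from -0.46 to 0.26 in CDX2 KO over the settings. The upper ends came from the Y-linked covariate and rest on GATA3 KO embryo 6 alone and CDX2 KO embryo 5 alone against WT. When an embryo was left out, the median ran from -0.05 to 0.16 in GATA3 KO and from -0.67 to -0.14 in CDX2 KO. The difference in the share of counts went from -0.01 to 0.37 percentage points in GATA3 KO and from -0.89 to -0.11 in CDX2 KO when an embryo was left out, and was 0.27 without CDX2 KO embryos 2 and 3. Among named members 17 of 37 in GATA3 KO and 34 of 38 in CDX2 KO changed sign under some setting, none of them while past the threshold. The cause was not tested. No paired analysis was possible because the KO columns carry numbers of their own, which do not match the replicate numbers of the labels. The fewest counts were those of CDX2 KO embryo 3, 100731, and the part of depth in the calls was not tested. Protein length was not run as an alternative, since no lengths were at hand.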
